A study of Mus musculus with 9 samples.

Results

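The genes described here encode the machinery that copies DNA in mouse cells. They comprise the factors that mark and license replication origins, the helicase and its activators, the replicative polymerases, the sliding clamp with its loader, the enzymes that supply deoxynucleotides, the E2F factors and E cyclins that drive entry into S phase, and factors that rebuild chromatin behind the fork. They were chosen by name as 50 genes, and all 50 were found among the 22469 genes of the deposited table. All 50 also passed the filter on low values, which left 17579 genes to test. The choice used no measured value of these libraries, but it was made with earlier results of the same data known.

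Origins are licensed in late mitosis and G1, when the origin recognition complex, Cdc6 and Cdt1 load the ring-shaped Mcm2 to Mcm7 helicase onto DNA. In S phase kinases, Cdc45 and the GINS complex convert the loaded ring into a moving helicase, and geminin binds Cdt1 so that no origin is licensed again. Many of these genes are transcribed in a wave at the transition from G1 to S phase, under E2F factors that activate (E2f1, E2f2, E2f3) or repress (E2f7, E2f8) the same promoters.

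RNA was sequenced as total RNA depleted of ribosomal RNA from 4T1, an established mouse mammary tumour cell line. The 3 groups were unedited cells (WT) and a pair of lines in which Nat10 was knocked out, KO-c19 and KO-c43, with 3 biological replicates each. Nat10 encodes an acetyltransferase that modifies cytidine in RNA. All groups were seeded at 300000 cells on dishes of 6 cm, received no treatment and were lysed after 48 h. Each group is a single line grown as separate cultures, so the p-values reflect how much cultures of a line vary and say nothing of how much independently edited lines would vary. Values are normalized counts, meaning counts per gene after division by a size factor for each library, made by the authors. Changes are differences in mean log2(normalized count + 1) with the standard error (SE) of the limma fit, and a gene rose or fell when its Benjamini-Hochberg adjusted p was under 0.05. Folds come from the same scale, on which changes of low genes look smaller than they are.

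Nat10 itself stood at 27.0% of WT in KO-c19 and 27.1% in KO-c43, with no overlap between the libraries of either line and WT. Library totals ran from 45628576 to 50123222 normalized counts. Of the 6 mammary epithelial markers, 4 fell in both lines by at least 1.5-fold, among them Epcam and Krt14, and Krt8 and Krt18 rose in both, at 24715 to 37581 normalized counts in all 9 libraries. The summed markers were at 95120 to 99753 in WT, 73560 to 79695 in KO-c19 and 67628 to 69893 in KO-c43. Within that list Epcam went from 6133 to 6580 in WT down to 830 to 1097 in KO-c19 and 108 to 135 in KO-c43, and Krt14 from 4692 to 5220 down to 22.2 to 22.3 and 13.5 to 16.1. Of the other cell types, the fibroblast markers summed to 312 to 325 in WT, 838 to 904 in KO-c19 and 406 to 504 in KO-c43, most of it Pdgfra, which rose in both lines. The other 2 tested fibroblast markers, Col1a1 and Col1a2, fell in both from 31.8 or below. Leukocyte markers summed to 156 to 216 in WT, 256 to 317 in KO-c19 and 176 to 218 in KO-c43, with Ptprc at 11.1 or below. The 1 leukocyte marker tested rose in KO-c19 (log2 0.62) and did not pass in KO-c43 (0.08). The endothelial marker with a row, Pecam1, was at 17.2 or below. The share of counts taken by the ribosomal RNA gene Rn18s was 2.06% to 4.40% in WT, 0.916% to 1.26% in KO-c19 and 1.27% to 2.59% in KO-c43. The mitochondrial share was 2.58% to 3.32% in WT, 3.96% to 4.51% in KO-c19 and 3.63% to 4.11% in KO-c43. These differences move with the groups compared here, and their part in the results was not tested.

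Summed, the replication genes were lower in both knockout lines, at 273863 to 278150 normalized counts in WT, 253893 to 261646 in KO-c19 and 264560 to 267222 in KO-c43, with no overlap. The library totals had the same order of groups, also without overlap. As a share of the library total the genes made up between 0.547% and 0.566% in all 9 libraries, and the 3 groups overlapped. Within these sums the individual genes moved in both directions, by small amounts and with distinct patterns within single complexes.

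In KO-c19 against WT, 12 of the 50 genes rose and 21 fell, where the background over all genes tested was 67.6% called in either direction, 32.8% rising and 34.9% falling. In KO-c43 against WT, 14 rose and 20 fell, beside 65.6%, 32.5% and 33.1% of all genes. The shares called among replication genes were thus near the background. What differed was size. The median size of the log2 change was 0.18 in KO-c19 and 0.20 in KO-c43, against 0.39 and 0.37 over all genes tested. The replication genes had a median level of 3725 normalized counts over the 9 libraries and all genes tested 596, so the comparison is also between levels, and the part of the level was not tested. At a change of at least 1.5-fold, 4 of the 50 passed in KO-c19 and 3 in KO-c43, beside 31.6% and 29.2% of all genes. These were E2f8, which rose in both lines, Orc2, which fell in both, Mcm2 and Fen1, which fell in KO-c19, and Orc1, which fell in KO-c43.

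The median log2 change of the 50 genes was −0.08 in KO-c19 and −0.06 in KO-c43, against 0.00 and 0.01 over all genes. Under other scalings of the libraries the median of all genes in KO-c19 moved to 0.10 by totals and 0.11 by upper quartile. That of the replication genes then moved to 0.02 and 0.03, again 0.08 below it, while quantile normalization put them at 0.01 and all genes at −0.00. Among all genes the share of called genes that were higher in KO-c19 was 48.4% as deposited, 57.7% by totals and 58.3% by upper quartile. Calls against WT that the scaling changed among the 50 genes are therefore given below. For KO-c43 against KO-c19 such changes are given as counts.

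**Figure D1:**
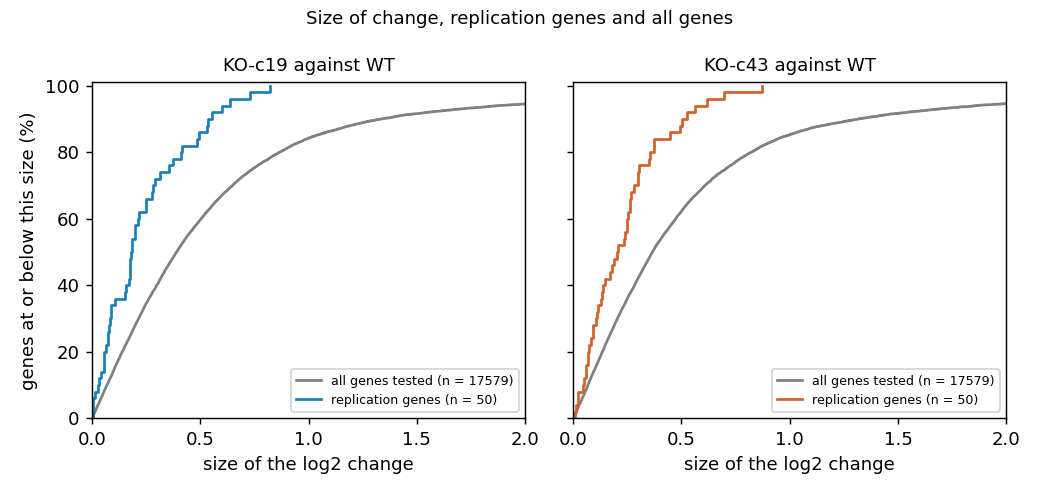
Cumulative share of genes (vertical axis, %) at or below each size of log2 change (horizontal axis) in KO-c19 and KO-c43 against WT. The coloured lines are the 50 replication genes and the grey lines the 17579 genes tested; the coloured lines lie to the left, with medians of 0.18 and 0.20 against 0.39 and 0.37.

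Both comparisons share the WT libraries, so their calls are not independent. With that limit, 17 of the 50 genes fell in both lines, where 27% of all genes did, and 10 rose in both, where 25.4% did. Gmnn and Pola2 were called in opposite directions, which 2.96% of all genes were. The direct test of KO-c43 against KO-c19 found 15 genes higher and 7 lower in KO-c43, with a background of 39.4% called, 21.1% higher and 18.3% lower. None of the 50 differed between the lines by 1.5-fold, a size that 11.2% of all genes reached.

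**Figure D2:**
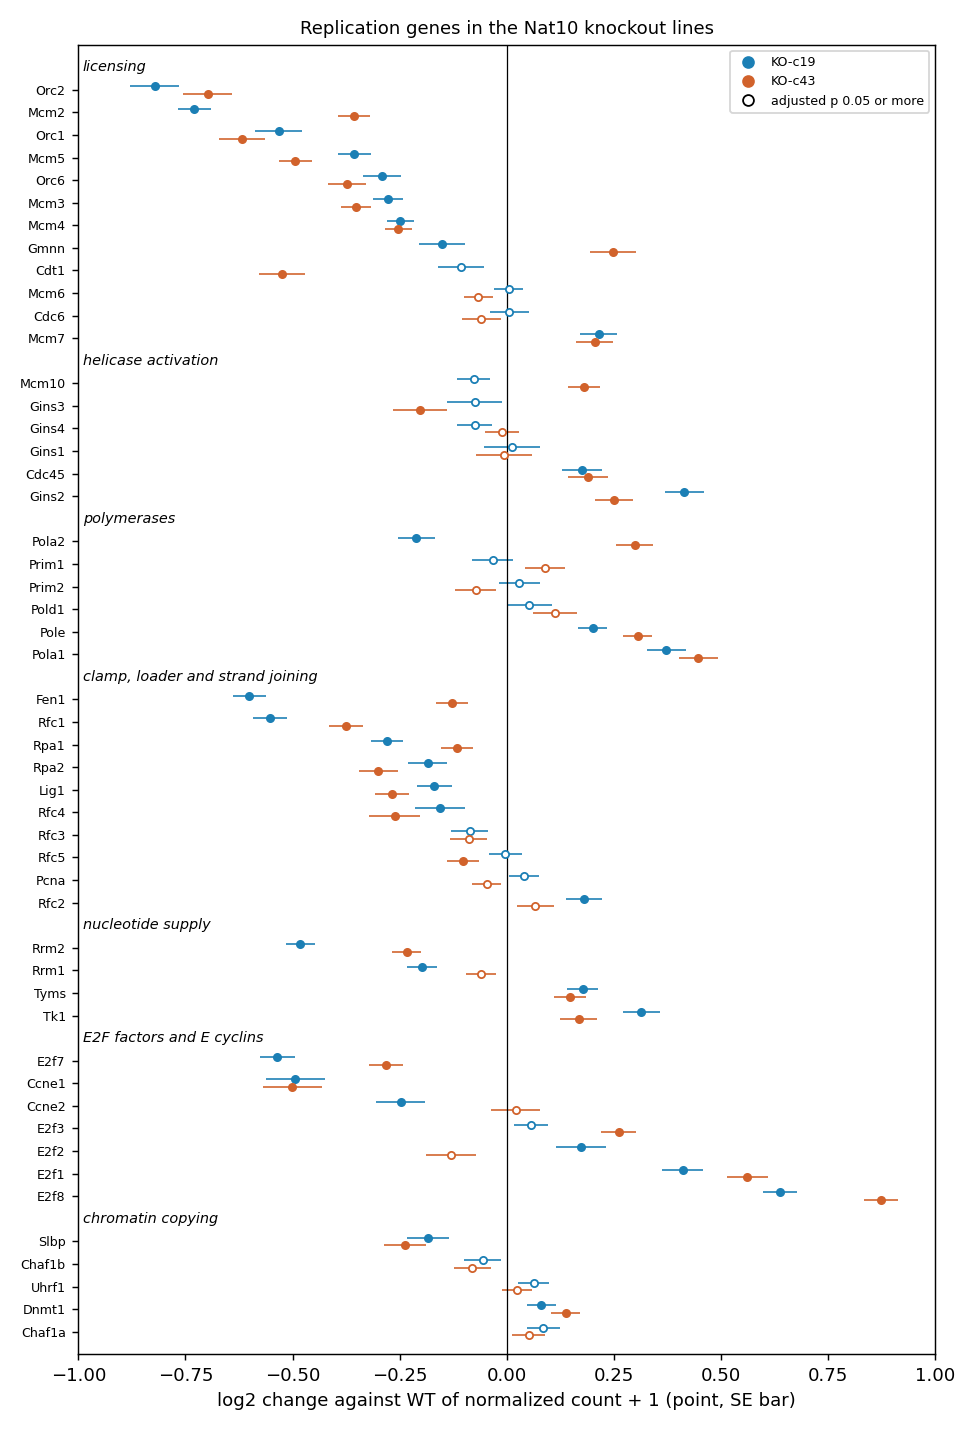
Log2 change against WT (horizontal axis, with SE bars) of the 50 replication genes, grouped by role, for KO-c19 in blue and KO-c43 in orange; open points did not pass the adjusted p. E2f8 stands at the far right with 0.64 and 0.87, and Orc2 at the far left with −0.82 and −0.70.

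E2F factors bind a short motif in the promoters of many of these genes, and the promoter windows of 250 bases before to 50 after the start were searched for it. Windows came from RefSeq on GRCm38.p6 and were matched by symbol for 41 of the 50 genes, 51 windows in all. The letters searched, on both strands, were TTTCCCGC, TTTCGCGC, TTTGCCGC and TTTGGCGC. They were found for 17 of the 41 genes (41.5%), against 704 of 27025 genes (2.61%) and 744 of 32851 windows (2.26%) in the whole set. Many of the genes are known to be under E2F factors, so a high share was partly set by their choice. The whole set was not matched for base composition. CCAAT, the box bound by NF-Y and searched on both strands, was in 28 of the 41 (68.3%) against 41.1% of all genes, and TTTGAA, the core of the cell cycle homology region, in 8 of the 41 (19.5%) against 20.2%. Stretches of 30 bases around a match are printed for 8 genes, to show that the same letters stand before genes that fell, rose and did not pass. Each reads 5′ to 3′ on the strand of its gene, with the matched letters in capitals and overlapping matches run together. As deposited, Orc1, Mcm5 and E2f7 fell in both lines, Mcm7, Pola1 and Dnmt1 rose in both, and Mcm6 and Cdc6 passed in neither. Calls of Dnmt1, Mcm6 and Cdc6 changed under some alternatives, as given with each gene below. The stretches lie at chr4:108579416-108579445 (plus) for Orc1, chr8:75109345-75109374 (plus) for Mcm5, chr10:110745230-110745259 (plus) for E2f7, chr5:138172030-138172059 (minus) for Mcm7, chrX:93632275-93632304 (minus) for Pola1, chr9:20952824-20952853 (minus) for Dnmt1, chr1:128359797-128359826 (minus) for Mcm6 and chr11:98908002-98908031 (plus) for Cdc6.
Orc1: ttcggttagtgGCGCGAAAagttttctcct
Mcm5: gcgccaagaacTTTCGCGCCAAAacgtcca
E2f7: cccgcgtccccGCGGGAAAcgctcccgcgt
Mcm7: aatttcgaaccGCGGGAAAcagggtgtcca
Pola1: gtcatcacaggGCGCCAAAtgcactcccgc
Dnmt1: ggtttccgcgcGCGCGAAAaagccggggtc
Mcm6: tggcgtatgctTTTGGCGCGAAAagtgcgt
Cdc6: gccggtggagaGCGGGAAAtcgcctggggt
The first matched base lies 27 bases before the start in Orc1, 165 in Mcm7 and 110 in Mcm6. Sorted by call in KO-c19, the E2F letters were in 4 of 9 genes that rose, 5 of 18 that fell and 8 of 14 that did not pass. In KO-c43 they were in 4 of 11, 7 of 19 and 6 of 11. A match describes letters in this window and no binding was measured.

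The counts by role below stand beside the shares of all genes tested, 32.8% rising and 34.9% falling in KO-c19 and 32.5% and 33.1% in KO-c43, and no test of a role was made. Most genes of origin licensing fell. Of its 12 genes, KO-c19 had 8 that fell and 1 that rose, and KO-c43 had 8 that fell and 2 that rose. Under every alternative scaling, filter and left-out library, 7 of the 8 in KO-c19 and all 8 in KO-c43 remained called, leaving aside the 1.5-fold minimum. In bulk RNA, fewer cells in G1 or S phase and less of a transcript per cell cannot be told apart.

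Orc1, Orc2 and Orc6 encode subunits of the origin recognition complex, and all fell in both lines. Orc2 (ENSMUSG00000026037, chromosome 1, 58501930 to 58544268, minus strand, in the coordinates of the deposited table, which names no build) had 3320, 3064 and 3149 normalized counts in WT. The KO-c19 libraries held 1993, 1702 and 1710, and the KO-c43 libraries 1917, 1898 and 2060. Every knockout library was below every WT library and the lines overlapped each other. The fall was 1.77-fold in KO-c19 (log2 −0.82 ± 0.058 SE, limma adjusted p = 9.05e-10) and 1.62-fold in KO-c43 (−0.70 ± 0.058, limma adjusted p = 8.28e-09). Orc2 overlaps Nif3l1 on the opposite strand over 19046 bases, and Nif3l1 averaged 2541 (WT), 1813 (KO-c19) and 1697 (KO-c43) normalized counts. The counting step is not stated to use strand, so reads of the pair cannot be told apart.

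Orc1, the subunit whose protein is degraded during S phase in human cells, had 1219, 1164 and 1180 normalized counts in WT, 829, 862 and 773 in KO-c19, and 765, 760 and 797 in KO-c43. Both lines lay wholly below WT. The log2 changes were −0.53 ± 0.054 in KO-c19 (limma adjusted p = 8.9e-08) and −0.62 ± 0.054 in KO-c43 (1.3e-08), while the direct comparison of the lines did not pass (limma adjusted p = 0.234). Orc6 fell by 0.29 and 0.37 on the log2 scale. Vps35 overlaps Orc6 on the opposite strand over 171 bases and averaged 9716 (WT), 6895 (KO-c19) and 7603 (KO-c43). The loading factor Cdc6 changed by at most 0.06 on the log2 scale in either line, with 95% intervals of −0.09 to 0.10 and −0.16 to 0.04, and its libraries overlapped those of WT. By upper quartile scaling Cdc6 passed as a rise of 0.11 in KO-c19 (limma adjusted p = 0.0347).

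Cdt1 and Gmnn encode a licensing factor and its inhibitor geminin, and here the lines parted. Cdt1 had 5149, 5539 and 5242 normalized counts in WT, 4552, 5112 and 5146 in KO-c19, and 3964, 3617 and 3506 in KO-c43. The KO-c43 libraries were below all others, while the highest KO-c19 library fell just short of the lowest WT library. KO-c43 was 1.44-fold lower than WT (log2 −0.52 ± 0.053, limma adjusted p = 1.43e-07), whereas KO-c19 did not pass (−0.11, limma adjusted p = 0.0869). The lines differed directly by −0.42 (limma adjusted p = 6.3e-06). Cdt1 lies within Galnt2l on the same strand, which averaged 2704 in WT, 2991 in KO-c19 and 2739 in KO-c43.

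Gmnn moved the other way from Cdt1 in KO-c43 only. It had 1389, 1400 and 1385 normalized counts in WT, 1368, 1175 and 1221 in KO-c19, and 1688, 1612 and 1657 in KO-c43. The KO-c43 libraries were above all others and the KO-c19 libraries below all others, replicate 1 of KO-c19 only narrowly. Gmnn rose in KO-c43 (log2 0.25 ± 0.053, limma adjusted p = 0.000497) and fell in KO-c19 (−0.15 ± 0.053, limma adjusted p = 0.0177). The fall in KO-c19 did not pass under any other scaling (−0.05 to −0.10) or without KO-c19 replicate 2 (limma adjusted p = 0.103) or 3 (0.0628). Per kilobase of annotated exon, the ratio of Cdt1 to Gmnn was 1.73 to 1.85 in WT, 1.55 to 2.03 in KO-c19 and 0.987 to 1.10 in KO-c43. The ratio does not depend on the size factor of each library, but quantile normalization could change it and was not applied to it. KO-c43 lay apart from WT at exact permutation p = 0.1, the smallest p that 3 against 3 allow.

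The 6 subunits of the Mcm2 to Mcm7 helicase, which act in equal numbers as a ring, did not move together. Mcm2, Mcm3, Mcm4 and Mcm5 fell in both lines, Mcm7 rose in both, and Mcm6 passed in neither. Mcm2 (ENSMUSG00000002870, chromosome 6, 88860456 to 88875762, minus strand in the table's coordinates) had 13066, 13240 and 12987 normalized counts in WT, 7488, 8110 and 8115 in KO-c19, and 9950, 10461 and 10282 in KO-c43. The 3 groups did not overlap. Mcm2 was 1.66-fold lower in KO-c19 (log2 −0.73 ± 0.038, limma adjusted p = 1.08e-11) and 1.28-fold lower in KO-c43 (−0.36 ± 0.038, limma adjusted p = 1.91e-07), and the lines differed by 0.37 (3.31e-07).

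Mcm6 had 13565, 14253 and 13734 normalized counts in WT, 13963, 14024 and 13694 in KO-c19, and 12932, 13375 and 13367 in KO-c43. KO-c19 lay within the range of WT and KO-c43 just below it. The 95% intervals of its log2 change were −0.07 to 0.08 in KO-c19 and −0.14 to 0.00 in KO-c43, although Mcm6 rose in KO-c19 by 0.10 to 0.11 under the other scalings and fell in KO-c43 when KO-c19 replicate 1 was left out (limma adjusted p = 0.0439). Mcm7 had 10112, 10927 and 10604 normalized counts in WT, 11441, 12748 and 12542 in KO-c19, and 12471, 12150 and 11850 in KO-c43. All knockout libraries exceeded all WT libraries, a rise of 0.21 on the log2 scale in both lines (limma adjusted p = 0.000283 and 0.000437). Ap4m1 overlaps Mcm7 on the opposite strand over 421 bases and averaged 962 (WT), 1407 (KO-c19) and 1336 (KO-c43). Cops6, also on the opposite strand, overlaps Mcm7 over 64 bases and averaged 3700, 3699 and 3679. Mcm3 fell by 0.28 and 0.35, Mcm4 by 0.25 in both lines, and Mcm5 by 0.36 and 0.49 on the log2 scale.

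Taken per kilobase of exon and as a share of all 6 subunits, Mcm2 was 10.5% ± 0.133 (SD, n = 3) for WT, 7.29% ± 0.167 for KO-c19 and 9.60% ± 0.270 for KO-c43. The share of Mcm7 was 13.3% ± 0.291 for WT, 17.8% ± 0.577 for KO-c19 and 17.9% ± 0.386 for KO-c43. The ratio of Mcm7 to Mcm2 went from 1.22 to 1.30 in WT to 2.40 to 2.47 in KO-c19 and 1.81 to 1.97 in KO-c43, with no overlap among the groups (exact permutation p = 0.1 for each pair, the smallest possible). Since Mcm7 rose and Mcm2 fell in both lines, the ratio restates those calls and adds no independent support. With the length of the principal transcript in place of all exons, the share of Mcm2 was 16.0%, 11.1% and 14.4%, and that of Mcm7 was 14.6%, 19.6% and 19.5%. The length used thus sets which subunit ranks higher, but not the direction of either share in the knockout lines.

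**Figure D3:**
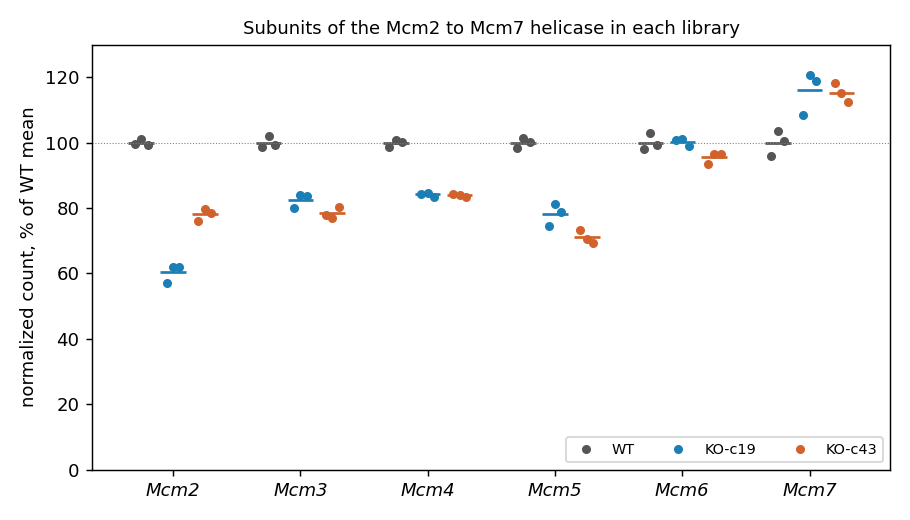
Normalized counts of the 6 helicase subunits in each library as % of the WT mean (vertical axis), with WT in grey, KO-c19 in blue and KO-c43 in orange; short lines are group means and the dotted line is 100%. Mcm2 stands at 60.3% and 78.1% of WT in the knockout lines and Mcm7 at 116.1% and 115.3%.

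Helicase activation showed few falling genes. Of its 6 genes, KO-c19 had 2 that rose and none that fell, and KO-c43 had 3 that rose and 1 that fell. Gins2, a subunit of the GINS complex that tethers Cdc45 to the helicase, had 1442, 1484 and 1471 normalized counts in WT, 1941, 1925 and 1995 in KO-c19, and 1797, 1791 and 1647 in KO-c43. The groups did not overlap, and the rise was 1.33-fold in KO-c19 (log2 0.41 ± 0.045, limma adjusted p = 2.36e-07) and 1.19-fold in KO-c43 (0.25 ± 0.045, limma adjusted p = 9.37e-05). Gse1 overlaps Gins2 on the opposite strand over 2758 bases and averaged 1407, 2352 and 1468 in the same order of groups. Galnt2l, also on the opposite strand, overlaps Gins2 over 10672 bases and averaged 2704, 2991 and 2739. The GINS partners Gins1 and Gins4 passed in neither line, and Gins3 fell in KO-c43 by 0.20 (limma adjusted p = 0.00931), a call that was lost without WT replicate 1 or KO-c43 replicate 1.

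Cdc45, the other partner of the active helicase, rose in both lines by 0.18 and 0.19 on the log2 scale. Mcm10, which helps the loaded helicase to open DNA, had 2992, 3037 and 2868 normalized counts in WT, 2832, 2800 and 2796 in KO-c19, and 3307, 3349 and 3424 in KO-c43. It rose in KO-c43 (log2 0.18 ± 0.038, limma adjusted p = 0.000416), and all libraries of that line were above all others. In KO-c19 Mcm10 was at −0.08 on the log2 scale without passing (limma adjusted p = 0.0795), and the sign turned under other scalings.

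The replicative polymerases gave rising genes or no call, apart from Pola2 in KO-c19. Of the 6 genes, KO-c19 showed 2 rising and 1 falling, and KO-c43 showed 3 rising and none falling. Pola1, the catalytic subunit of polymerase alpha that starts each new strand, had 3528, 3417 and 3423 normalized counts in WT, 4813, 4217 and 4405 in KO-c19, and 4692, 4588 and 4860 in KO-c43. All 6 knockout libraries exceeded WT, with log2 changes of 0.37 ± 0.045 (limma adjusted p = 1.01e-06) and 0.45 ± 0.045 (9.93e-08). Pole, the catalytic subunit of the leading strand polymerase epsilon, had 5738, 5812 and 5875 normalized counts in WT, 6514, 6820 and 6687 in KO-c19, and 7094, 7166 and 7275 in KO-c43. The groups did not overlap, and the log2 rise of Pole was 0.20 ± 0.034 and 0.31 ± 0.034 (limma adjusted p = 5.29e-05 and 3.66e-07).

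Pola2, the accessory subunit that pairs with Pola1, separated the lines. It had 4599, 4814 and 4573 normalized counts in WT, 3782, 4167 and 4138 in KO-c19, and 5644, 5918 and 5634 in KO-c43. KO-c19 lay wholly below WT and KO-c43 wholly above it. The log2 changes were −0.21 ± 0.043 (limma adjusted p = 0.000289) and 0.30 ± 0.043 (7.49e-06), and KO-c43 exceeded KO-c19 by 0.51 ± 0.043 (limma adjusted p = 2.99e-08). These calls held under each alternative tried other than the 1.5-fold minimum. Per kilobase, the ratio of Pola1 to Pola2 was 0.668 to 0.722 in WT, 0.952 to 1.20 in KO-c19 and 0.730 to 0.812 in KO-c43, 3 ranges that do not overlap. The primase subunits Prim1 and Prim2 and the catalytic subunit of the lagging strand polymerase delta, Pold1, passed in neither line, with changes of −0.07 to 0.11 on the log2 scale. Under all 3 other scalings Pold1 passed as a rise in both lines (0.14 to 0.16 and 0.16 to 0.17) and Prim1 in KO-c43 (0.13 to 0.15), and Prim2 did so in KO-c19 by totals and upper quartile (0.13).

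The clamp, its loader and the enzymes that finish the lagging strand mostly fell. Of these 10 genes, KO-c19 had 6 that fell and 1 that rose, and KO-c43 had 7 that fell and none that rose, but only 3 of the 6 falls in KO-c19 and 4 of the 7 in KO-c43 held under every alternative besides the 1.5-fold minimum. Pcna, the sliding clamp and the highest of them per kilobase, had 13034, 13222 and 12860 normalized counts in WT, 13916, 13165 and 13165 in KO-c19, and 12758, 12358 and 12742 in KO-c43. The libraries of KO-c19 overlapped WT and those of KO-c43 lay just below it. The 95% interval of the log2 change was −0.03 to 0.11 in KO-c19 and −0.12 to 0.03 in KO-c43, and under the other scalings Pcna passed as a rise of 0.12 to 0.15 in KO-c19. The GENCODE annotation also lists the pseudogenes Pcna-ps1 and Pcna-ps2, which could share reads with Pcna.

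Rfc1, the large subunit of the clamp loader, had 7677, 7249 and 7348 normalized counts in WT, 5305, 4914 and 4974 in KO-c19, and 5736, 5612 and 5821 in KO-c43. The groups did not overlap. It fell 1.47-fold in KO-c19 (log2 −0.55 ± 0.039, limma adjusted p = 7.42e-10) and 1.30-fold in KO-c43 (−0.38 ± 0.039, limma adjusted p = 1.42e-07). The small subunits of the loader moved less: Rfc2 rose by 0.18 in KO-c19, Rfc4 fell by 0.16 and 0.26, Rfc5 fell by 0.10 in KO-c43, and Rfc3 passed in neither line. The calls of Rfc4 in KO-c19 (−0.11 to −0.05) and Rfc5 in KO-c43 (−0.06 to −0.04) were lost under all 3 other scalings. Rfc4 in KO-c19 was also lost without WT replicate 1 or 3 or KO-c19 replicate 2 or 3, and Rfc5 in KO-c43 without WT replicate 1 or 2 or KO-c43 replicate 2. Rfc2 passed as a rise in KO-c43 under all 3 other scalings (0.11 to 0.13). By totals and upper quartile Rfc5 passed as a rise in KO-c19 (0.09 to 0.10). Per kilobase, Rfc1 made up 31.8% to 32.8% of the 5 subunits in WT, 24.5% to 25.5% in KO-c19 and 28.4% to 28.5% in KO-c43. Eif4a2 overlaps Rfc4 on the opposite strand over 194 bases and averaged 12489 (WT), 10938.1 (KO-c19) and 10950.5 (KO-c43).

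Fen1, the nuclease that trims flaps from Okazaki fragments, had 4884, 4984 and 4722 normalized counts in WT, 3199, 3285 and 3136 in KO-c19, and 4447, 4372 and 4534 in KO-c43. KO-c19 stood far below both other groups, and KO-c43 just below WT. The fall was 1.52-fold in KO-c19 (log2 −0.60 ± 0.037, limma adjusted p = 1.23e-10) and 1.09-fold in KO-c43 (−0.13 ± 0.037, limma adjusted p = 0.00618), and KO-c43 stood above KO-c19 by 0.47 (limma adjusted p = 1.35e-08). The call in KO-c43 did not hold under the other scalings (limma adjusted p = 0.0626 to 0.101). The lncRNA Gm10143 overlaps Fen1 on the opposite strand and averaged 348, 231 and 286. The single-strand binding subunits Rpa1 and Rpa2 fell in both lines, by 0.28 and 0.12 and by 0.18 and 0.30 on the log2 scale, and so did Lig1, the ligase that joins Okazaki fragments, by 0.17 and 0.27. The fall of Rpa1 in KO-c43 was lost under all 3 other scalings (−0.07 to −0.06) and without WT replicate 2 or KO-c43 replicate 2. Those of Rpa2 and Lig1 in KO-c19 were lost by totals and upper quartile (−0.09 to −0.08 and −0.07 to −0.06).

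Of the 4 genes of nucleotide supply, KO-c19 had 2 rising and 2 falling, and KO-c43 had 2 rising and 1 falling. Rrm2, the small subunit of ribonucleotide reductase whose level is tied to S phase, had 15189, 14611 and 14272 normalized counts in WT, 10338, 10676 and 10529 in KO-c19, and 12429, 12430 and 12606 in KO-c43. The groups did not overlap. Rrm2 fell 1.40-fold in KO-c19 (log2 −0.48 ± 0.034, limma adjusted p = 7.61e-10) and 1.18-fold in KO-c43 (−0.23 ± 0.034, limma adjusted p = 9.43e-06), and the lines differed (0.25, limma adjusted p = 1.24e-05). The large subunit Rrm1 fell by 0.20 in KO-c19 and did not pass in KO-c43, so that per kilobase the ratio of Rrm1 to Rrm2 was 0.200 to 0.213 in WT, 0.247 to 0.261 in KO-c19 and 0.226 to 0.241 in KO-c43.

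The thymidylate genes went up. Tyms, which makes thymidylate from deoxyuridylate, rose by 0.18 and 0.15 on the log2 scale, with the pseudogene Tyms-ps also listed in the GENCODE annotation. Tk1, the salvage kinase for thymidine, rose by 0.31 and 0.17 (limma adjusted p = 3.99e-06 and 0.00226). Its normalized counts were 7802 to 8376 in WT, 9441 to 10264 in KO-c19 and 8661 to 9365 in KO-c43, with both lines above WT.

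E2f8 had the largest change of the 50 genes in KO-c43 and the largest rise in KO-c19, where Orc2 and Mcm2 changed more. E2f8 (ENSMUSG00000046179, chromosome 7, 48516177 to 48531344, minus strand in the table's coordinates) had 5129, 5261 and 5340 normalized counts in WT, 7831, 8474 and 8177 in KO-c19, and 9384, 9979 and 9464 in KO-c43. The groups did not overlap. E2f8 rose 1.56-fold in KO-c19 (log2 0.64 ± 0.039, limma adjusted p = 9.82e-11) and 1.83-fold in KO-c43 (0.87 ± 0.039, limma adjusted p = 1.3e-12). The lncRNA Gm2788 on the opposite strand overlaps it over 3639 bases and averaged 51.3, 214 and 391 in the 3 groups, far below E2f8.

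E2f7, the other atypical repressor, moved the opposite way. It had 4433, 4368 and 4104 normalized counts in WT, 2877, 3064 and 2957 in KO-c19, and 3499, 3586 and 3521 in KO-c43. Both lines lay wholly below WT, with a fall of 1.45-fold in KO-c19 (log2 −0.54 ± 0.041, limma adjusted p = 1.77e-09) and 1.22-fold in KO-c43 (−0.28 ± 0.041, limma adjusted p = 7.38e-06). Per kilobase, the ratio of E2f8 to E2f7 was 1.92 to 2.15 in WT, 4.51 to 4.58 in KO-c19 and 4.44 to 4.61 in KO-c43. The lines overlapped each other in this ratio and lay apart from WT (exact permutation p = 0.1 for each, the smallest possible). Since E2f8 rose and E2f7 fell in both lines, the distance from WT restates those calls.

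E2f1, an activator, had 2846, 2893 and 2957 normalized counts in WT, 3553, 4032 and 3994 in KO-c19, and 4297, 4428 and 4109 in KO-c43. The groups did not overlap, and the log2 rise of E2f1 was 0.41 ± 0.048 for KO-c19 (limma adjusted p = 5.28e-07) and 0.56 ± 0.048 for KO-c43 (9.18e-09). As deposited, the other activators were called in 1 line each: E2f2 rose in KO-c19 (0.17, limma adjusted p = 0.0153) and E2f3 in KO-c43 (0.26, limma adjusted p = 1.78e-05). The lines differed directly in both, by −0.30 for E2f2 (limma adjusted p = 0.000434) and 0.20 for E2f3 (0.000526). E2f3 also passed as a rise in KO-c19 under all 3 other scalings (0.15 to 0.16), and E2f2 as a fall in KO-c43 by quantile normalization or without KO-c19 replicate 1. E2f2 did not pass in KO-c19 without WT replicate 2 or without KO-c19 replicate 2, and per kilobase it was the lowest of the 50 genes in every group.

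Ccne1 and Ccne2 encode the E cyclins that activate Cdk2 at the start of S phase. Ccne1 had 754, 757 and 802 normalized counts in WT, 506, 587 and 552 in KO-c19, and 541, 510 and 585 in KO-c43. Both lines lay wholly below WT and overlapped each other, each 1.41-fold lower (log2 −0.49 ± 0.069, limma adjusted p = 5.45e-06, and −0.50 ± 0.069, limma adjusted p = 4.78e-06). Ccne2 fell in KO-c19 by 0.25 (limma adjusted p = 0.000984) and was at 0.02 in KO-c43 (0.771), with a direct difference of 0.27 between the lines (limma adjusted p = 0.00108). Ints8 overlaps Ccne2 on the opposite strand over 5622 bases and averaged 2571, 2136 and 2539, also lowest in KO-c19.

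**Figure D4:**
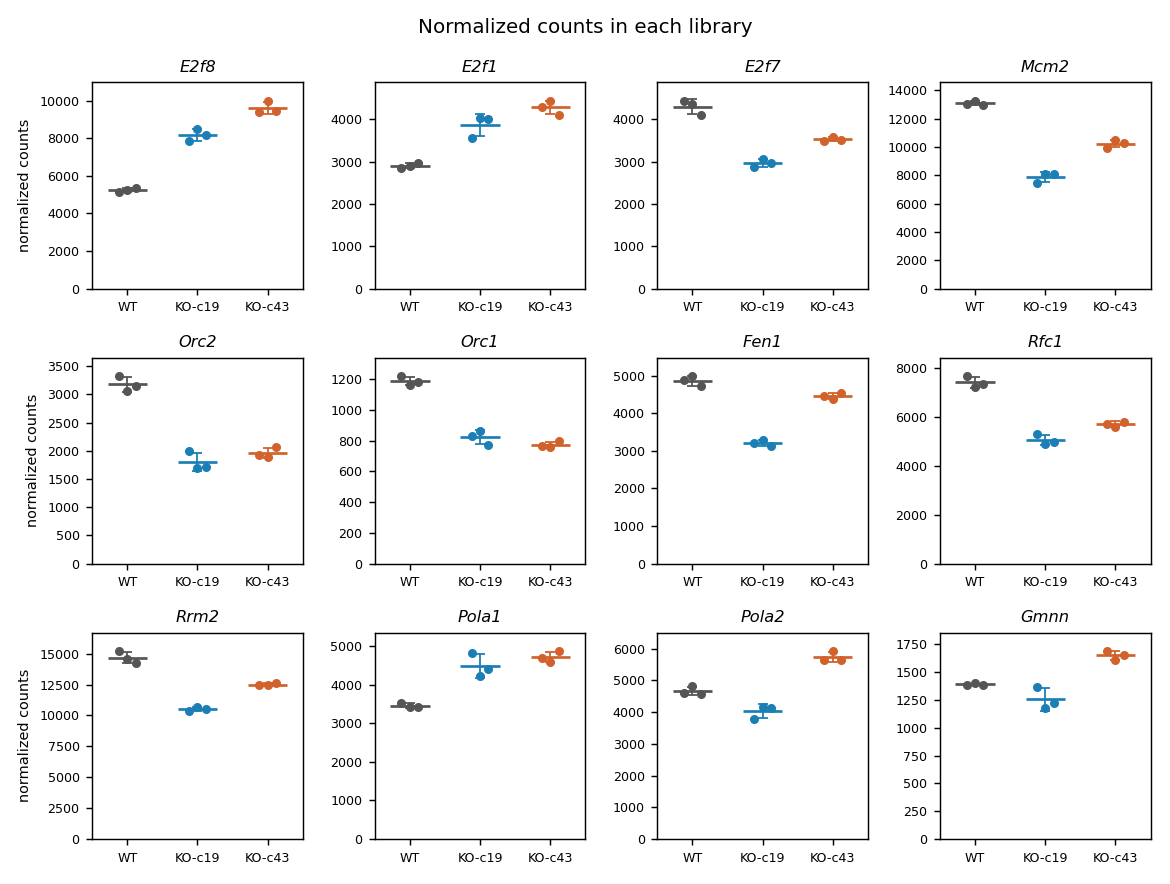
Normalized counts (vertical axes, from 0) of 12 replication genes in each library, with 1 point per library, a line at the group mean and bars of 1 SD (n = 3). E2f8 and E2f1 stand above WT in both lines, E2f7, Mcm2, Orc2, Orc1, Rfc1 and Rrm2 below it, and Pola2 and Gmnn are highest in KO-c43 and lowest in KO-c19.

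Of the 5 genes that copy chromatin, 1 rose and 1 fell in each line. Dnmt1, which restores methylation on the new strand, had 15628, 15637 and 15669 normalized counts in WT, 16001, 17000 and 16641 in KO-c19, and 17082, 17514 and 17018 in KO-c43. Both lines lay above WT, with log2 changes of 0.08 ± 0.034 (limma adjusted p = 0.0429) and 0.14 ± 0.034 (0.00162). The call in KO-c19 was lost when any 1 of the WT libraries, KO-c19 replicate 2 or 3, or KO-c43 replicate 1 or 2 was left out (limma adjusted p = 0.0509 to 0.162). That call was also lost with the replicate block (limma adjusted p = 0.0560) and with only the 2 groups compared (0.0605). Without intensity trend and robust fitting it was lost too (0.0759). Slbp, which binds the stem-loop of histone mRNA, had 5046, 4934 and 4843 normalized counts in WT, 4694, 4242 and 4131 in KO-c19, and 4008, 4131 and 4438 in KO-c43. Both lines lay below WT, with a fall of 0.18 ± 0.049 in KO-c19 (limma adjusted p = 0.00289), which did not pass under other scalings, and 0.24 ± 0.049 in KO-c43 (0.000327). Uhrf1, which guides Dnmt1 to hemimethylated DNA, and the chromatin assembly subunits Chaf1a and Chaf1b passed in neither line as deposited, with changes of −0.08 to 0.09. Under all 3 other scalings Uhrf1 (0.16 to 0.17) and Chaf1a (0.17 to 0.19) passed as rises in KO-c19, and in KO-c43 Chaf1a did so by totals and upper quartile (0.10 to 0.11) and Uhrf1 by upper quartile (0.08).

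Per kilobase of exon, Pcna and Rrm2 had the highest levels of the 50 genes in all 3 groups, at 5433 ± 75.3 and 5302 ± 167 (SD, n = 3) normalized counts per kilobase in WT. These neighbours did not separate in WT, where their libraries overlapped, but in both knockout lines Rrm2 lay below Pcna. E2f8 moved from rank 20 in WT to rank 12 in KO-c19 and 11 in KO-c43, Mcm2 from rank 11 to 17 and 14, and Orc2 from rank 25 to 40 and 37. The ranks depend on the length used: by principal transcript Pcna kept rank 1 in all groups, but Tk1, at rank 13 in WT by all exons, stood at rank 3 in WT and at rank 2, above Rrm2, in both knockout lines.

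Beyond the 50 genes, 42 other replication genes were counted from a list fixed with earlier results known. In KO-c19, 8 rose and 22 fell, with a median log2 change of −0.16, and in KO-c43, 9 rose and 23 fell, with a median of −0.12. Over all genes tested 32.8% rose and 34.9% fell in KO-c19 and 32.5% and 33.1% in KO-c43, with medians of 0.00 and 0.01. Among the falls with the smallest adjusted p were those of Ctps, which makes cytidine triphosphate, with log2 changes of −1.26 and −1.0 (limma adjusted p = 7.44e-15 and 1.85e-13), and Samhd1, which degrades deoxynucleotides, with −0.74 and −0.52. Mtbp, a partner of the origin firing factor Ticrr, fell by 0.66 and 0.29, and the nucleoside diphosphate kinase Nme1 by 0.43 and 0.56. Recql4, a helicase family member named after its values were seen, fell by 0.62 and 0.65. Pold4, the smallest subunit of polymerase delta, rose by 1.26 and 1.21 (limma adjusted p = 7.7e-13 and 1.44e-12), and Ctc1, a subunit of the telomeric CST complex, by 0.77 and 0.59. Topbp1, needed for helicase activation, rose by 0.11 and 0.24. Pole4 and Timeless, named after their values were seen, were called in opposite directions in the lines, although Pole4 was not called in KO-c43 without WT replicate 3, nor Timeless in KO-c43 by upper quartile scaling.

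The partners of the E2F factors had 10 tested genes, with 5 rising and 4 falling in KO-c19, and 5 rising and 3 falling in KO-c43. Beside these stand 32.8% rising and 34.9% falling over all genes tested in KO-c19, and 32.5% and 33.1% in KO-c43. E2f4, the main E2F of resting cells, had log2 changes of −0.72 and −0.74 (limma adjusted p = 2.92e-09 and 2.54e-09). The dimerization partner Tfdp1 fell by 0.43 and 0.48 while its paralogue Tfdp2 rose by 1.12 and 1.04. The pocket proteins that hold E2F factors in check rose, Rb1 by 0.56 and 0.93, Rbl2 by 0.57 and 0.67, and Rbl1 by 0.18 in both lines. Mybl2, which works with the MuvB complex in G2, fell by 0.57 and 0.69.

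Of the 12 genes of G2 and mitosis, KO-c19 had 6 that fell and none that rose, and KO-c43 had 6 that fell and 2 that rose. The shares of all genes tested were 34.9% falling and 32.8% rising in KO-c19, and 33.1% and 32.5% in KO-c43. No test of this list was made. The mitotic kinases Aurka and Plk1 fell in both lines, by 0.47 and 0.48 and by 0.41 and 0.40 on the log2 scale. The proliferation marker Mki67 had 53980 to 58147 normalized counts in WT, 48615 to 52966 in KO-c19 and 50554 to 51988 in KO-c43, a fall of 0.15 and 0.14 (limma adjusted p = 0.00309 and 0.00357). Under the other scalings Mki67 did not pass in KO-c19 (−0.05 to 0.03), nor in KO-c43 by quantile normalization (−0.03) or upper quartile (−0.08). Ccnb1, a cyclin of mitotic entry, fell by 0.22 in KO-c19 and rose by 0.19 in KO-c43, in the directions of Gmnn and Pola2. How these values relate to those of the replication genes was not tested, and the share of cells in each phase was not measured here.

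**Figure D5:**
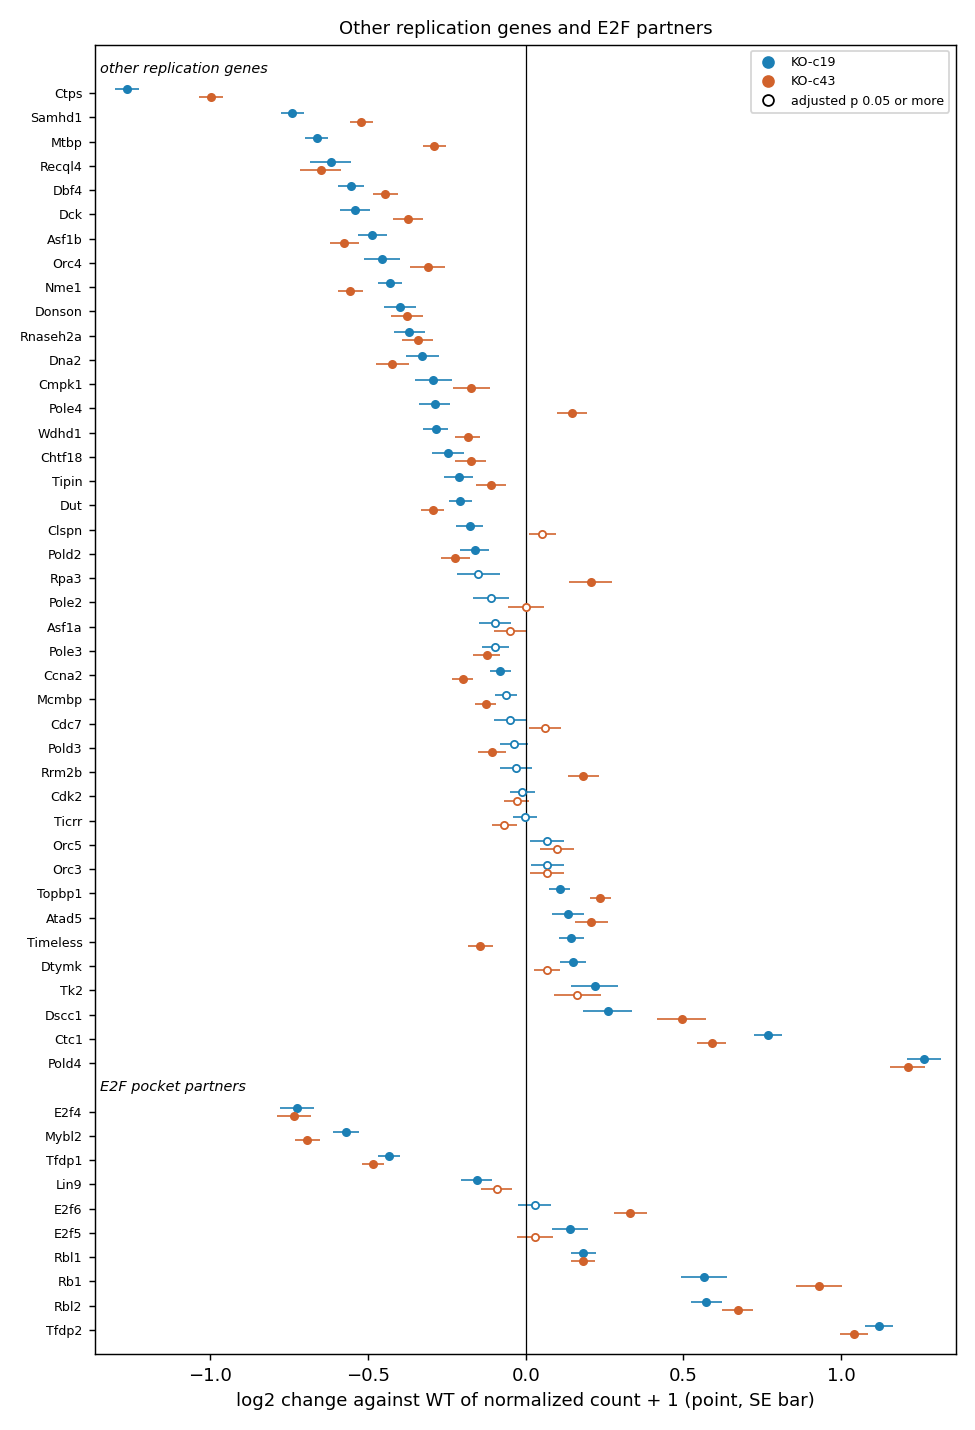
Log2 change against WT (horizontal axis, with SE bars) of 41 of the 42 other replication genes and of 10 E2F partners, KO-c19 in blue and KO-c43 in orange; open points did not pass the adjusted p. Ctps lies at −1.26 and −1.0, Pold4 at 1.26 and 1.21 and Tfdp2 at 1.12 and 1.04.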

How the data were processed

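Stranded total RNA libraries of 4T1 cells (9 libraries, 3 per group) were analysed from 1 table of 22469 genes. Per the submitters' processing notes the tools were cutadapt, STAR and Partek with mm10. No version, counter, strand setting or annotation is given in the sources used here. The table holds a deposited signal for every gene, counts scaled by the authors with 1 size factor for each library. Low values lay within 0.1 of whole multiples of 1 read for 83.7% to 84.6% of genes, so whole reads were not recovered and no count model was run. By that spacing, 1 read stood for 0.826 to 1.12 normalized counts and library depth differed by about that factor. Table coordinates are not GRCm38 (468 of 22292 matched identifiers share a start) and are printed as given; promoters are RefSeq windows on GRCm38.p6.

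Values were taken as log2(value + 1). The 17579 genes that reached 10 in 3 or more libraries entered 1 limma fit of the 3 group means (R 4.3.3, limma 3.58.1, data.table version 1.17.8 and statmod 1.5.0) with intensity trend and robust empirical Bayes, two-sided, with Benjamini-Hochberg adjustment over all tested genes in each comparison. The median residual SD was 0.09. Ratios were compared with exact permutation tests. Ratios and shares within complexes were not among the planned results. They use the same values as the calls of their genes and add no independent support. Lengths came from GENCODE exons. The fit was tested on simulated data.

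The replication genes and all lists were chosen with earlier results of these data known. Values in every library are given for genes changed by at least 0.5 on the log2 scale, for those called in opposite directions, and for the smallest adjusted p and the highest mean of each role; from other lists, up to 4 rising and 4 falling genes are named. Mcm7, Tk1 and Mki67 were added after their values were seen. Alternatives covered pseudocount, filter, scaling, empirical Bayes, groups fitted, biotype, a 1.5-fold minimum, a replicate block and each library left out; the principal transcript length was added after seeing the data. Replicate numbers come from the labels and were not treated as pairs. Of 25 genes that overlap another gene of the table, 21 do so on the opposite strand, and the effect on their counts was not tested. Figures used Python 3.11.15 and matplotlib 3.10.9. Of the other replication genes, 1 is counted but not reported by name.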

Additional observations from a re-analysis of the deposited data

Results flagged for a closer look

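Gmnn, which encodes geminin, was called in opposite directions in the knockout lines, where its log2 change against WT was −0.15 for KO-c19 and 0.25 for KO-c43. Its fall in KO-c19 did not pass under any other scaling (limma adjusted p = 0.118 to 0.450) or without KO-c19 replicate 2 or 3. Tested directly, KO-c43 minus KO-c19 was 0.40 in log2 units (limma adjusted p = 7.8e-06), which held under each alternative other than the 1.5-fold minimum. Opposite calls were made for 2 of the 50 genes, beside 2.96% of all genes tested.

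Pola2, the accessory subunit of polymerase alpha, was likewise lower than WT in KO-c19 and higher in KO-c43, with log2 changes of −0.21 and 0.30. The direct difference of KO-c43 minus KO-c19 was 0.51 (limma adjusted p = 2.99e-08), and the libraries of the 3 groups did not overlap.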

How the results depend on the processing

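Scaling and the 1.5-fold minimum moved the counts most. By totals, 20 of the 50 replication genes rose in KO-c19, 17 were lower in KO-c43 than in KO-c19, 11 fell in both lines and 1 was called in opposite directions, and 2 of the G2 and mitosis genes rose in KO-c19. By upper quartile these counts were 21, 16, 11, 1 and 2, and 15 of the other replication genes rose in KO-c43. By quantile normalization, 14 were lower in KO-c43 than in KO-c19 and 1 of the G2 and mitosis genes rose in KO-c19. Among all genes, 53.7% of the calls of KO-c43 against KO-c19 were higher in KO-c43 as deposited, 40.7% by totals and 41.9% by upper quartile.

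With a minimum of 1.5-fold, KO-c19 had 1 replication gene that rose and 3 that fell, KO-c43 had 1 and 2, and the comparison of the lines 0 and 0. In both lines 1 rose and 1 fell, and 0 were opposite. The other replication genes gave 2 rises and 4 falls for KO-c19, and 2 and 2 for KO-c43. The E2F partners gave 1 rise and 1 fall for KO-c19 and 3 rises and 2 falls for KO-c43. Of the G2 and mitosis genes 0 passed.

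Leaving out each library in turn gave 4 to 9 replication genes lower in KO-c43 than in KO-c19 (4 without KO-c19 replicate 2, KO-c19 replicate 3 or KO-c43 replicate 2), 1 to 3 called in opposite directions (1 without KO-c19 replicate 2 or 3), and 0 to 2 G2 and mitosis genes that rose in KO-c19. The log2 change of Mcm6 in KO-c19, 0.00, ran from −0.0101 to 0.0255 when each library was left out, below 0 without WT replicate 1, WT replicate 3 or KO-c19 replicate 2. That of Mcm10 in KO-c19, −0.08, became 0.0202 by totals, 0.0128 by quantile and 0.0271 by upper quartile, and that of Pcna in KO-c43, −0.05, became 0.0117 by upper quartile. Without KO-c19 replicate 1, Pold1, Uhrf1 and Chaf1a passed in KO-c19, Prim1 and Pold1 in KO-c43 and Rfc3 in both lines, and Pold1 passed in KO-c43 without WT replicate 2. The cause of these moves was not tested.

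Same-numbered libraries of different groups did not deviate together (correlations of −0.09 to 0.08). With the replicate block 11 genes rose and 21 fell in KO-c19, 14 rose and 20 fell in KO-c43, and 16 were higher and 5 lower in KO-c43 than in KO-c19. Of the calls as reported, 10 of 12 rises and 16 of 21 falls in KO-c19, and 14 of 14 rises and 16 of 20 falls in KO-c43, held under all 20 alternatives apart from the 1.5-fold minimum. Normalized totals differed by group without overlap, and 3 cultures of 1 line per group limit what the tests can show.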
